A study of Rattus norvegicus with 5 samples.

Results

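The 10 genes described here encode glycolytic enzymes and lactate dehydrogenases (Gpi, Aldoa, Aldoc, Tpi1, Pgk1, Pgam1, Eno1, Pkm, Ldha and Ldhb), taken by symbol from the 25399 genes counted in single-cell RNA sequencing of rat retina. Each symbol matched 1 gene. The retinas came from SD rats, and 1 library was analysed for each of 4 groups. The control library (0 weeks) came from a rat given citrate buffer without streptozotocin (STZ), a toxin of the insulin-producing beta cells. The libraries at 2, 4 and 8 weeks came from rats given 1 injection of STZ at 45 mg/kg and, once their blood glucose was high, a diet rich in fat and sugar. Control replicate 1 was not analysed here. The age and sex of the rats are not given in the sources used here. Controls carry neither STZ nor, as far as the labels say, the diet, so the effects of toxin, diet and time cannot be told apart from those of the animal, its dissection and its library.

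Glycolysis splits glucose into pyruvate in the cytosol and yields a small amount of ATP without oxygen. Glucose-6-phosphate isomerase (Gpi), the aldolases (Aldoa, Aldoc) and triosephosphate isomerase (Tpi1) carry the sugar to triose phosphates, and phosphoglycerate kinase (Pgk1), phosphoglycerate mutase (Pgam1), enolase (Eno1) and pyruvate kinase (Pkm) carry those on to pyruvate. Lactate dehydrogenase is a tetramer of A and B subunits (Ldha, Ldhb) that interconverts pyruvate and lactate. Photoreceptors are known for aerobic glycolysis, the conversion of much of their glucose to lactate in the presence of oxygen, and Müller glia, the radial glia of the retina, are known to store glycogen and to exchange fuels with neurons.

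Several genes of this pathway are textbook targets of hypoxia-inducible factors, whose response element holds the letters ACGTG or GCGTG. The 250 bases before the annotated start were therefore searched for both, on either strand, in the RefSeq promoters of build GRCr8. A promoter was found for 9 of the 10 genes, with 12 start sites (not for Pgk1). Counted per start site, ACGTG was present in 4 of 12, against 16.57% of the 33469 promoters in the reference, GCGTG in 6 of 12 against 25.89%, and either in 7 of 12 against 36.7%. Neither was in the windows of Gpi, Tpi1 and Pkm or of the other Aldoa start sites. The 4 start sites holding ACGTG are printed below with Tpi1 as a window that holds neither. Capitals mark the matches, and CACGTG in Ldha holds 2 overlapping ones. The windows lie at chr1:106507842-106508091 (+ strand) for Ldha, chr1:250672902-250673151 (+) for Pgam1, chr10:63715294-63715543 (+) for Aldoc, chr1:190836778-190837027 (-) for the third Aldoa start and chr4:159305089-159305338 (-) for Tpi1. A match describes letters and shows no binding.
Ldha: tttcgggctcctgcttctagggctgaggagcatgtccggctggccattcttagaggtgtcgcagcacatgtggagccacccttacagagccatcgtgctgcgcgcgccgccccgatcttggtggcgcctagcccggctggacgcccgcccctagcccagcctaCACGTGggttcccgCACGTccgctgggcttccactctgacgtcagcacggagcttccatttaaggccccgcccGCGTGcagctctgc
Pgam1: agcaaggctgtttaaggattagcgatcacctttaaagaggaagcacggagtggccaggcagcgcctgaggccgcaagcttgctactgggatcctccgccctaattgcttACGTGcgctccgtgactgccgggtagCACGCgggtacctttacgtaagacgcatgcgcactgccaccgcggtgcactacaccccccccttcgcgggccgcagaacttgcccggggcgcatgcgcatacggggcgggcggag
Aldoc: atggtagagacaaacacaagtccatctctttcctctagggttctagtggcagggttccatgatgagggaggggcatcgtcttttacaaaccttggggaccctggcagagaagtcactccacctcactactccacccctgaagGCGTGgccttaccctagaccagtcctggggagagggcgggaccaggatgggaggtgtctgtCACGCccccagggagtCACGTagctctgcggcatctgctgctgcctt
Aldoa: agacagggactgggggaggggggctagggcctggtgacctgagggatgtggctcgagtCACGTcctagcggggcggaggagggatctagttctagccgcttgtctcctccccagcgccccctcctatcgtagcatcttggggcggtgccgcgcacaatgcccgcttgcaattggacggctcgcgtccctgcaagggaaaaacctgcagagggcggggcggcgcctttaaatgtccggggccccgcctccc
Tpi1: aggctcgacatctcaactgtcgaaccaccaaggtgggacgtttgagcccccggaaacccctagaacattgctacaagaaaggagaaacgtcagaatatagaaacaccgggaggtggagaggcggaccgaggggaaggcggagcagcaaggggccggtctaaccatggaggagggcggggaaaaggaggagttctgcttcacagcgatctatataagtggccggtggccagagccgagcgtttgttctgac

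After filtering, 6823 control cells and 10984, 7689 and 4283 cells at 2, 4 and 8 weeks remained, with medians of 903 to 1414 unique molecular identifiers (UMIs, counted RNA molecules) per cell. Any pair of libraries shared 7 to 31 cell barcodes. Clusters named by marker genes gave 6 classes with at least 50 cells in every library: rods, cones, Müller glia, bipolar cells, amacrine cells and microglia. In rods all 9 rod markers were detected in each library, with a summed level of 27606 to 49663 CPM (a gene's share of all UMIs summed in that class), and in Müller glia all 9 of theirs, at 45009 to 55525 CPM. In microglia all 9 microglial markers summed to 15362 to 20800 CPM. UMIs were summed per library and class before scaling. Ratios to control are on a log2 scale with 0.5 counts added to each sum, and a ratio of 0.585 is the 1.5-fold mark used throughout. With 1 library a group no test was possible and no p-value is given. The 95% intervals are exact for counting error and leave out all variation between animals, and UMI counts are not scaled to gene length, so levels are compared between classes and libraries, not between genes. The 3 diabetic libraries are each set against the same control library.

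Rods held more transcripts of most of these enzymes at 2 and 4 weeks than in control, and levels close to control at 8 weeks. The 10 genes together made up 5929 CPM of rod transcripts in control, 11438 at 2 weeks, 9900 at 4 weeks and 6500 at 8 weeks. At 2 weeks 8 of the 10 stood at least 1.5-fold above control and none below, where 7.53% of the 5936 genes used in rods were that much higher and 28.3% that much lower. Among the 1751 rod genes at a mean of at least 100 CPM, a level that 8 of the enzymes reach, the shares were 17.0 and 16.4%. At 4 weeks 7 were higher and 1 lower, against 8.37 and 12.3% of all genes. At 8 weeks none passed the fold in either direction, against 2.29 and 1.26%. The median log2 ratio of the 10 was 0.83, 0.81 and 0.12 at 2, 4 and 8 weeks, beside -0.27, 0.03 and 0.01 over all genes used. Scaling by TMM factors, which moved every rod ratio at 2 weeks up by 0.39, left 8 genes higher there, against 20.9% of all genes.

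**Figure D1:**
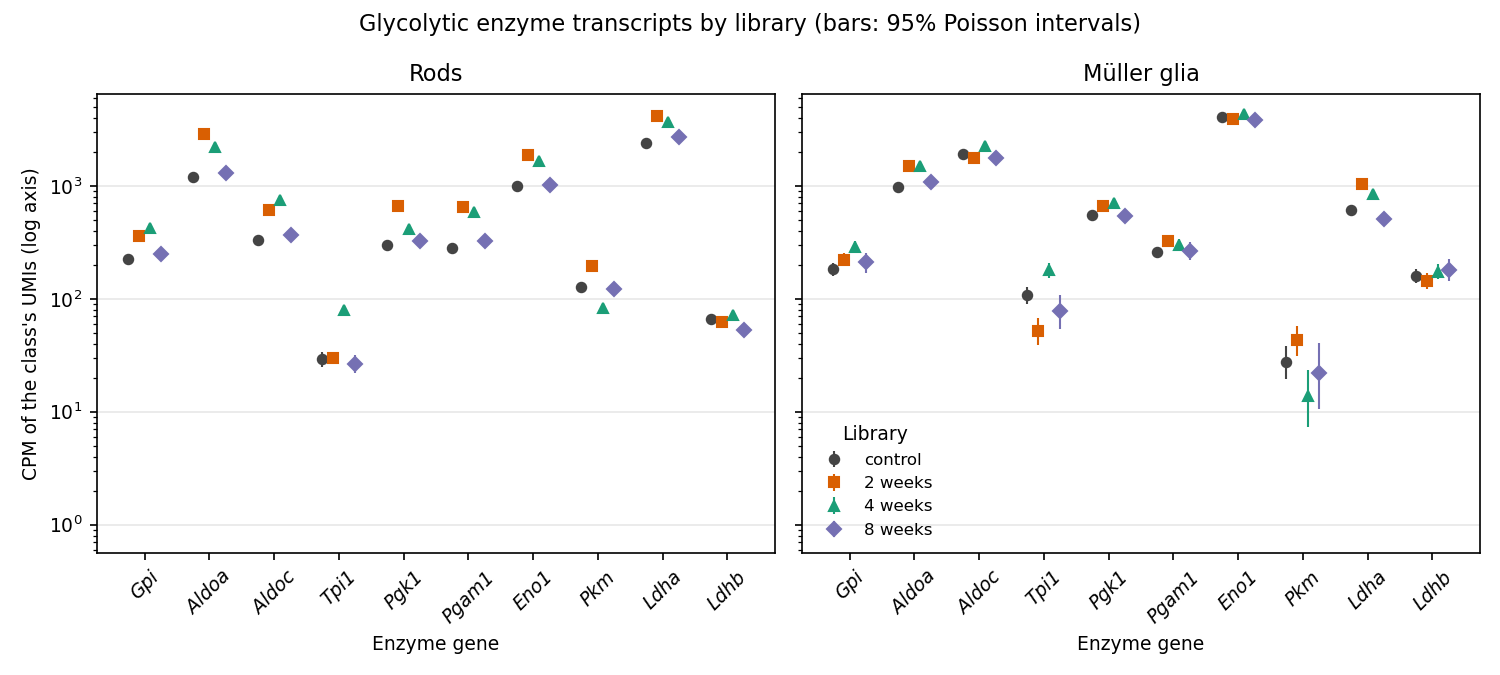
Level of each enzyme transcript in rods (left) and Müller glia (right), in CPM of the class's UMIs on a log axis; each marker is 1 library and bars are 95% Poisson intervals. In rods the 2 and 4 week markers lie above control and 8 weeks for Gpi, Aldoa, Aldoc, Pgk1, Pgam1, Eno1 and Ldha, while Eno1 in Müller glia stays between 3841 and 4288 CPM.

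Among the enzymes of the upper steps, Aldoa, the aldolase of muscle and most other tissues, showed the largest difference at 2 weeks. Control rods held 1188 CPM, and the 2, 4 and 8 week rods held 2879, 2188 and 1292 CPM, log2 ratios of 1.28 (interval 1.24 to 1.31), 0.88 (0.84 to 0.92) and 0.12 (0.07 to 0.17). The 2 and 4 week libraries were thus both high, and the 8 week library lay near control. Aldoc, the aldolase known from brain, was at 328, 605, 743 and 368 CPM in the same order, and it was highest at 4 weeks (a log2 ratio of 1.18). Gpi, which converts glucose-6-phosphate to fructose-6-phosphate, followed the order of Aldoc with 224, 358, 427 and 249 CPM. Tpi1, which interconverts the triose phosphates, had another pattern. It was at 29.2 CPM in control, 30.2 at 2 weeks, 79.0 at 4 weeks and 26.5 at 8 weeks. Only its 4 week library was high, at a log2 ratio of 1.44 (1.19 to 1.69), the largest of the 10 at that time, and its 2 week ratio of 0.05 had an interval of -0.23 to 0.33.

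In the lower steps, Pgk1, the first ATP-forming enzyme of the pathway, was at 297, 666, 415 and 323 CPM in control, 2, 4 and 8 week rods. Its 4 week ratio of 0.49 (0.40 to 0.57) lay just inside the 1.5-fold mark, as the only member other than Ldhb to miss it at 4 weeks. Pgam1, which moves the phosphate of phosphoglycerate, stood at 281, 647, 585 and 326 CPM, log2 ratios of 1.21, 1.06 and 0.22. Eno1, which forms phosphoenolpyruvate, was at 998, 1882, 1665 and 1018 CPM, and its 8 week ratio of 0.03 (-0.03 to 0.08) was the smallest of its 3. Pkm, which makes pyruvate, was at 128 CPM in control, 194 at 2 weeks, 82.2 at 4 weeks and 121 at 8 weeks. It was the 1 member lower at 4 weeks, by a log2 ratio of -0.64 (-0.80 to -0.48), although it was 0.60 higher (0.48 to 0.73) at 2 weeks. With TMM scaling it no longer passed the fold at 4 weeks. The counts do not separate its M1 and M2 splice forms.

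The 2 subunits of lactate dehydrogenase differed. Ldha was at 2392, 4114, 3645 and 2724 CPM in rods, ratios of 0.78 (0.76 to 0.81), 0.61 (0.58 to 0.64) and 0.19 (0.15 to 0.22). All 3 diabetic libraries stood above control. Ldhb was at 65.6, 62.3, 71.6 and 52.5 CPM, and it passed the fold at no time. Its ratios were -0.08, 0.13 and -0.32, and the 2 and 4 week intervals include 0.

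Rod quality measures moved with the 2 week library. Mitochondrial transcripts made up 4.6% of rod UMIs in control, 8.52% at 2 weeks, 4.32% at 4 weeks and 5.07% at 8 weeks, and ribosomal protein transcripts 3.06, 4.41, 3.11 and 3.08%. The 9 rod markers together stood at 27606, 49663, 35226 and 31835 CPM, the same order of libraries as for Aldoa. The 4 week library, where 7 members were higher, had a mitochondrial share close to that of control. The part of these differences in the enzyme ratios was not tested.

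The libraries also filled the rod clusters unequally. Cluster 0, with the amino acid stress genes Trib3, Mthfd2 and Chac1 among its leading genes, held 70.5% of control rods and 62.1% of 8 week rods, but 1.59% at 2 weeks and 9.30% at 4 weeks. Clusters 2 and 3 held 32.9 and 32.2% of the 2 week rods, and cluster 1 held 48.3% of the 4 week rods. Within cluster 0 itself the 10 enzymes summed to 5596, 9051, 8495 and 6307 CPM in control, 2, 4 and 8 weeks, and within cluster 3 to 8216, 12381, 12524 and 9079 CPM. In both clusters the 2 and 4 week sums were above the other pair. The mitochondrial share from control to 2 weeks went from 4.01 to 5.5% in cluster 0, 3.49 to 6.92% in cluster 1, 3.41 to 6.18% in cluster 2, 10.4 to 9.79% in cluster 3, 3.88 to 5.22% in cluster 4 and 11.3 to 13.5% in cluster 6. It was thus higher at 2 weeks in 5 of these 6 clusters. At 4 weeks it was 2.59, 2.33, 2.81, 10.6, 3.26 and 16.0% in the same clusters.

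A within-cluster ratio needed 30 or more cells from both libraries, which 6 rod clusters had at each time. Aldoa was above control in all 6 at 2 weeks (log2 ratios of 0.61 to 0.97) and at 4 weeks (0.51 to 0.76). Aldoc was above control in all 6 at 2 weeks (0.30 to 0.90) and 4 weeks (0.96 to 1.17), and so was Eno1 (0.31 to 0.83 and 0.54 to 0.70). Ldha was above control in all 6 at both times (0.34 to 0.70 and 0.17 to 0.60). The intervals of these 4 enzymes exclude 0 in each cluster at both times, except at 2 weeks for Aldoc in cluster 0 (-0.13 to 0.68) and cluster 4 (-0.37 to 1.01) and for Eno1 in cluster 4 (-0.05 to 0.68). Gpi was above control in 5 of 6 at 2 weeks (-0.06 to 0.64) and 6 of 6 at 4 weeks (0.31 to 0.92). Pgk1 was above control in 6 of 6 (0.53 to 1.43) and 5 of 6 (-0.13 to 0.84), and Pgam1 in all 6 at both times. For Gpi, Pgk1 and Pgam1 some of the intervals include 0. Pkm at 4 weeks was below control in each of the 6 (-1.01 to -0.09), but its intervals include 0 in clusters 0, 2, 4 and 6. Tpi1 was above control in 1 of 6 at 2 weeks and in 6 of 6 at 4 weeks (0.76 to 1.44). Its 4 week intervals include 0 in clusters 2, 4 and 6. With the 6 clusters weighted equally, an alternative chosen after seeing the data, 5 members at 2 weeks and 6 at 4 weeks passed the fold, with medians of 0.58 and 0.63 against 0.83 and 0.81 for the whole class. No member was lower at 4 weeks by that measure. These clusters were formed from the cells of all 4 libraries with these genes included, and the within-cluster ratios were not recomputed without them. For whole classes only, clustering without these genes left each of the 48 ratios past 1.5-fold past it.

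**Figure D2:**
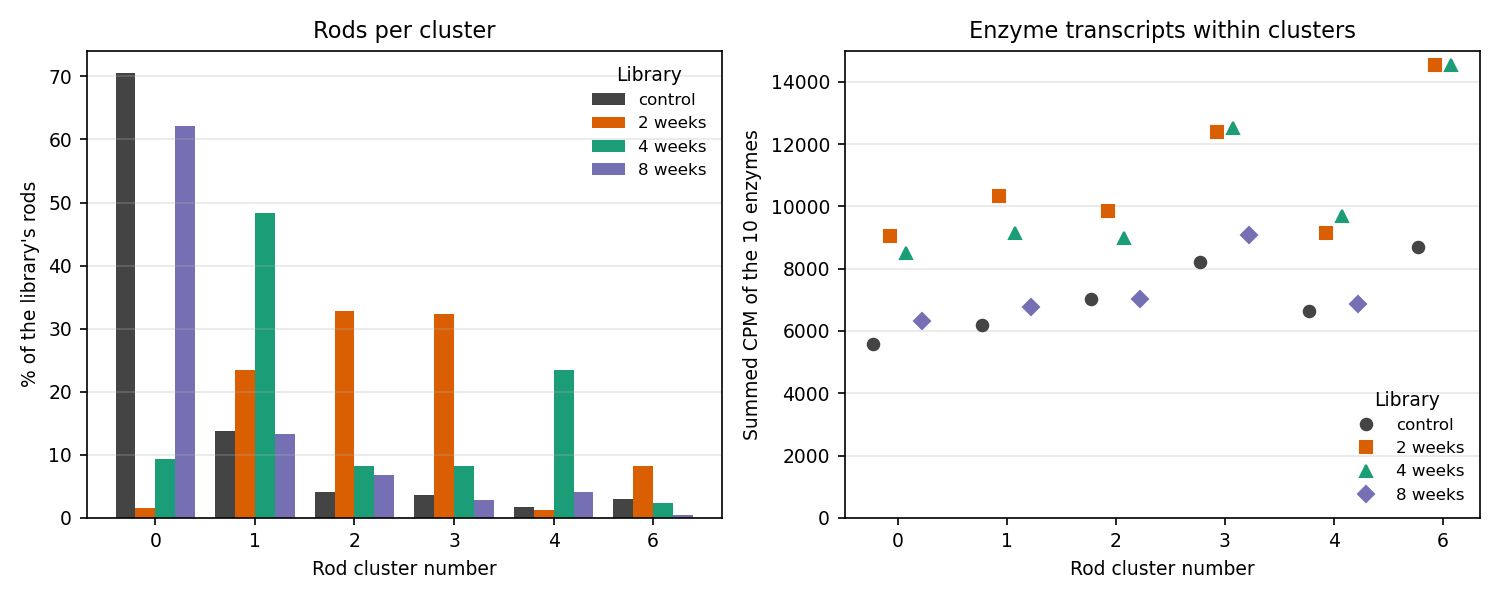
Share of each library's rods in a cluster (left, in %) and summed CPM of the 10 enzymes within the cluster (right, shown with at least 30 cells); bars and markers are coloured by library. Control and 8 week rods sit mostly in cluster 0, and within the 6 clusters drawn for control, 2 and 4 weeks (0, 1, 2, 3, 4 and 6) the 2 and 4 week sums lie above control.

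In Müller glia the enzyme transcripts summed to 8868 CPM in control, 9603 at 2 weeks, 10531 at 4 weeks and 8502 at 8 weeks. The spread is narrower than in rods. At 2 weeks 3 members were at least 1.5-fold higher and 1 lower, where 10.4 and 7.4% of the 6014 genes used were. At 4 weeks 3 were higher and 1 lower, against 10.4 and 8.55%, and at 8 weeks none, against 10.4 and 5.9%. The member medians were 0.28, 0.28 and -0.06, beside 0.04, 0.02 and 0.06 for all genes.

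Aldoa in Müller glia was at 981, 1491, 1502 and 1091 CPM in the same order, ratios of 0.60 (0.50 to 0.71), 0.61 (0.51 to 0.72) and 0.15 (0.00 to 0.30). The 2 and 4 week libraries were again above the other pair. Aldoc, the more glial aldolase by its known distribution in brain, was at 1921, 1749, 2241 and 1758 CPM and passed the fold at no time. Eno1 was at 4060, 3873, 4288 and 3841 CPM, with ratios of -0.07, 0.08 and -0.08. The 4 libraries thus lay close together.

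Ldha in Müller glia was at 616, 1037, 848 and 512 CPM, ratios of 0.75 (0.62 to 0.89), 0.46 (0.32 to 0.60) and -0.26 (-0.48 to -0.05). Gpi was at 182, 222, 287 and 210 CPM and passed the fold at 4 weeks (0.65, interval 0.40 to 0.91). Rod genes in this class reached 3739 CPM in the 2 week library, against 765, 1036 and 736 CPM in the control, 4 and 8 week libraries, so free RNA, estimated from those genes, made up 8.47, 25.0, 7.49 and 6.62% of the UMIs. The 2 week library is the one that stands apart. After subtraction of that estimate no member was 1.5-fold higher at 2 weeks and 3 were lower, and Ldha and Pkm changed sign to -0.10 and -0.76. At 4 weeks the counts after subtraction were still 3 higher and 1 lower.

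Tpi1 and Pkm departed from the median of the others in 1 direction across most classes, a pattern chosen after the values were seen. They were not the only ones. Ldhb lay below that median in 5 of 6 classes at 2 weeks. Its distance at 2, 4 and 8 weeks was -0.959, -0.755 and -0.446 in rods and -0.876, 0.92 and 0.941 in microglia. Tpi1 stood below the median of the other 9 enzymes in 6 of 6 classes at 2 weeks, by 0.62 to 1.48 on the log2 scale, and in 6 of 6 at 8 weeks, by 0.26 to 1.18. At 4 weeks it stood above that median in 5 of 6 classes, with microglia the exception at 0.40 below. Pkm at 4 weeks was below the median of the others in 6 of 6 classes, by 0.21 to 1.52.

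The levels show the same order. Tpi1 in amacrine cells was at 555 CPM in control, 296 at 2 weeks, 696 at 4 weeks and 317 at 8 weeks, ratios of -0.91 (-1.04 to -0.77), 0.33 (0.21 to 0.45) and -0.81 (-0.95 to -0.66). In bipolar cells it was at 377, 186, 505 and 176 CPM. The 2 and 8 week libraries were low and the 4 week library high in both classes, and all 6 ratio intervals exclude 0. In Müller glia Tpi1 was at 107, 52.0, 179 and 77.3 CPM, in cones at 133, 73.9, 226 and 68.4 CPM, and in microglia at 50.4, 26.9, 56.2 and 23.3 CPM from 16 to 55 UMIs a library. Rods as a whole were the 1 class whose 2 week library was not below control, and no test of that difference between classes was possible. The rod ratio of 0.05 had an interval of -0.23 to 0.33 and ran from -0.53 to 0.43 across the alternatives. Within rod clusters Tpi1 was above control at 2 weeks in only 1 of 6.

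Pkm in amacrine cells stood at 75.5, 122, 43.1 and 82.4 CPM in control, 2, 4 and 8 weeks, ratios of 0.69 (0.41 to 0.99), -0.81 (-1.22 to -0.41) and 0.13 (-0.21 to 0.46). In bipolar cells it stood at 102, 157, 58.3 and 103 CPM. Cones gave 179, 245, 78.3 and 173 CPM, and Müller glia 27.7, 43.0, 13.7 and 22.1 CPM from 10 to 43 UMIs. The 2 week library was the highest and the 4 week library the lowest in these 4 classes and in rods. In microglia Pkm was also highest at 2 weeks (34.3 CPM) but lowest in control (12.8 CPM), from 5 to 23 UMIs a library. Its 4 week ratio there of 0.37 had a wide interval, -1.5 to 1.8.

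Differences that run through several classes of a library were uncommon. Of the 3080 genes used in all 6 classes, 2.66% were at least 1.5-fold higher in 4 or more classes at 2 weeks, Pkm among them, and 1.53% were that much lower, Tpi1 among them. At 4 weeks 1.56% were higher, with no member, and 1.36% lower, with Pkm. At 8 weeks 0.357% were higher, with no member, and 0.325% lower, with Tpi1. It passed there in cones, bipolar cells, amacrine cells and microglia. With at most 10% mitochondrial UMIs its cone ratio turned to 0.53, so Tpi1 then fell short of 4 classes. With free RNA subtracted, Pkm at 2 weeks passed the fold in 3 classes (rods, bipolar and amacrine cells) and was at -0.76 in Müller glia and -0.50 in microglia, so it then fell short of 4 classes. The classes of a time come from 1 library, and a cause common to that library cannot be told apart from a change in the animal. Genes of this pathway also have close copies elsewhere in the genome, and how reads shared with such copies were counted is not given in the sources used here.

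**Figure D3:**
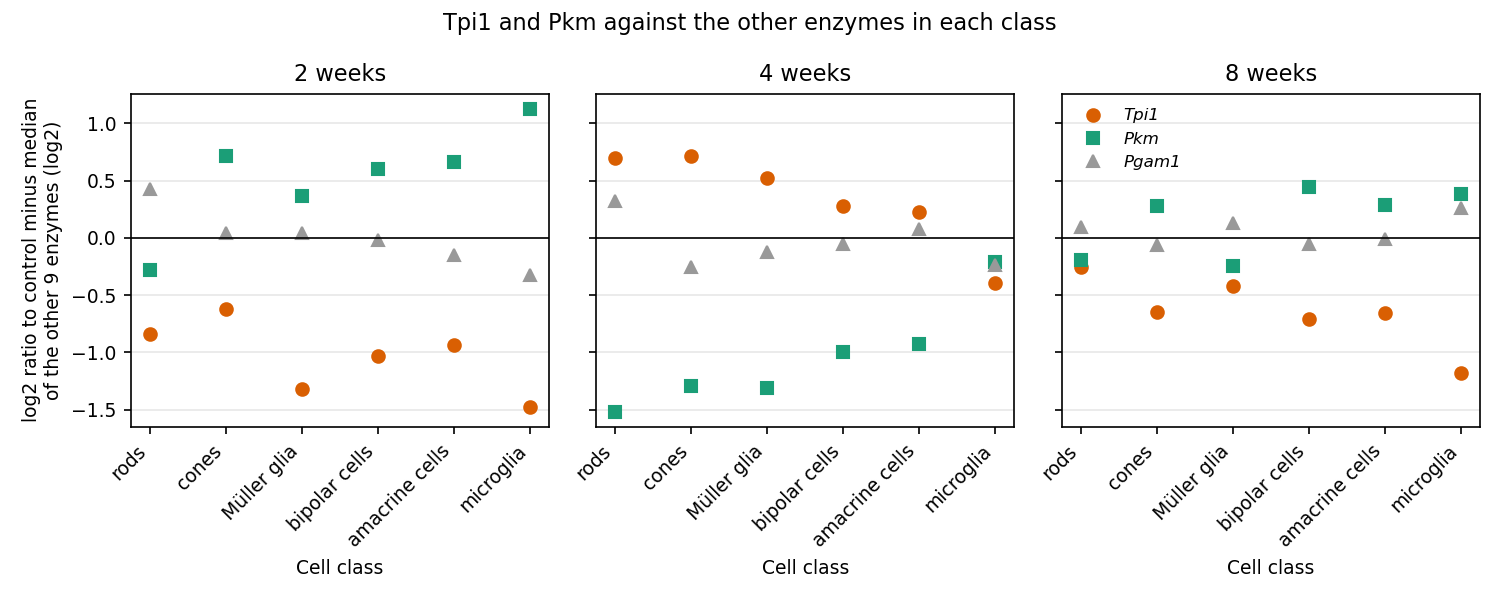
Log2 ratio to control of Tpi1 (circles) and Pkm (squares), with Pgam1 (triangles) for comparison, minus the median ratio of the other 9 enzymes in the same class; panels are 2, 4 and 8 weeks and each point is 1 class. Tpi1 lies below 0 in all classes at 2 and 8 weeks, and Pkm lies below 0 in all classes at 4 weeks. The other enzymes are not drawn, among them Ldhb, which also stood apart in rods and microglia.

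Cones, neurons and microglia gave smaller or less regular differences for the other enzymes. In cones (57 to 171 cells a library) the sum was 16517, 15068, 17520 and 12975 CPM. At 2 weeks no member was 1.5-fold higher and 1, Tpi1, was lower, against 13 and 13.7% of 5039 genes. At 4 weeks 1 was higher (Tpi1) and 1 lower (Pkm), against 16.1 and 16.0%, and at 8 weeks only Tpi1 was lower, against 12.6% higher and 11.1% lower. The intervals of 8 of the 10 lay below 0 at 8 weeks and none above, with a median ratio of -0.32. Ldha in cones stood at 5751, 5379, 5327 and 4767 CPM, ratios of -0.10 (-0.18 to -0.01), -0.11 (-0.21 to -0.01) and -0.27 (-0.36 to -0.18). Its control library was thus the highest in cones and the lowest in rods.

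Bipolar cells, the second-order neurons that receive photoreceptor input, gave sums of 12877, 13252, 14158 and 9950 CPM. The 20% mitochondrial limit left out much of this class. Its Aldoa and Aldoc UMIs numbered 4849, 14306, 4400 and 6260 in control, 2, 4 and 8 weeks. With up to 40% kept they numbered 26477, 33972, 19697 and 34510. The bipolar levels given here are thus those of the cells under the 20% limit. At 2 weeks 1 member was higher (Pkm) and 1 lower (Tpi1), against 8.2 and 5.92% of 5741 genes. At 4 weeks no member was higher and Pkm was lower, against 11.0 and 7.05%, and at 8 weeks none was higher and Tpi1 was lower, against 14.3 and 5.57%. The intervals of 9 of the 10 lay below 0 at 8 weeks, with a median ratio of -0.42. Free RNA, estimated from rod genes, made up 20.2, 27.1, 17.8 and 65.9% of bipolar UMIs in control, 2, 4 and 8 weeks. Across all alternatives the highest 8 week ratio was 0.26 for Ldhb, 0.16 for Pkm and 0.02 for Eno1. The others stayed below 0 in each. With TMM scaling 3 members were lower at 8 weeks and the median was -0.50. A cluster led by Pcp2 and Car8, both known from rod bipolar cells, held 2.91% of the bipolar cells in control and 17.1% at 8 weeks, and its cells had a median of 107 rod-gene UMIs at 8 weeks against 2.5 in control. Without that cluster, an alternative chosen after seeing the data, the 8 week median was -0.14 and 6 of the 10 intervals lay below 0.

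Amacrine cells, the inhibitory interneurons of the inner retina, gave the steadiest sums, 14644, 15903, 15438 and 13274 CPM. At 2 weeks 1 member was higher (Pkm) and 1 lower (Tpi1), against 7.71 and 5.47% of 5796 genes. At 4 weeks none was higher and Pkm was lower, against 6.95 and 5.21%, and at 8 weeks none was higher and Tpi1 was lower, against 3.93 and 2.38%. At 8 weeks 8 of the 10 intervals lay below 0 and 1 above, with a median of -0.15. Eno1 was at 1739, 2595, 1889 and 1403 CPM, and its 2 week ratio of 0.58 (0.52 to 0.64) lay just under the fold. Aldoa stayed between 3702 and 4030 CPM.

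Microglia, the resident macrophages of the retina, had the lowest sums, 1593, 2416, 2429 and 1734 CPM. At 2 weeks 5 members were higher and 1 lower, against 21.0 and 8.07% of 4624 genes, at 4 weeks 4 higher and none lower, against 18.1 and 14.8%, and at 8 weeks 1 and 1, against 7.09 and 9.06%. With TMM scaling 3 members were higher at 2 weeks, against 12.7% of genes higher and 13.9% lower. Ldha was at 260, 617, 440 and 279 CPM, and Eno1 at 219, 373, 393 and 230 CPM. Rod genes in microglia stood at 721, 3495, 827 and 1027 CPM, so free RNA was estimated at 7.98, 23.4, 5.98 and 9.24% of UMIs. Subtracting it left no Ldha or Eno1 counts at 2 weeks. Ldhb, which rods hardly contain, was at 138, 113, 340 and 280 CPM in microglia, ratios of -0.28, 1.30 (0.93 to 1.66) and 1.01 (0.70 to 1.33). Both later libraries were thus above the earlier pair. The 9 Müller glia markers in microglia summed to 3755, 5870, 13913 and 13140 CPM, with 7 or 8 of them detected, and were also highest at 4 and 8 weeks. Müller glia themselves held 174 CPM of Ldhb at 4 weeks and 181 CPM at 8 weeks. The part of their RNA in the microglial Ldhb ratios was not tested.

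**Figure D4:**
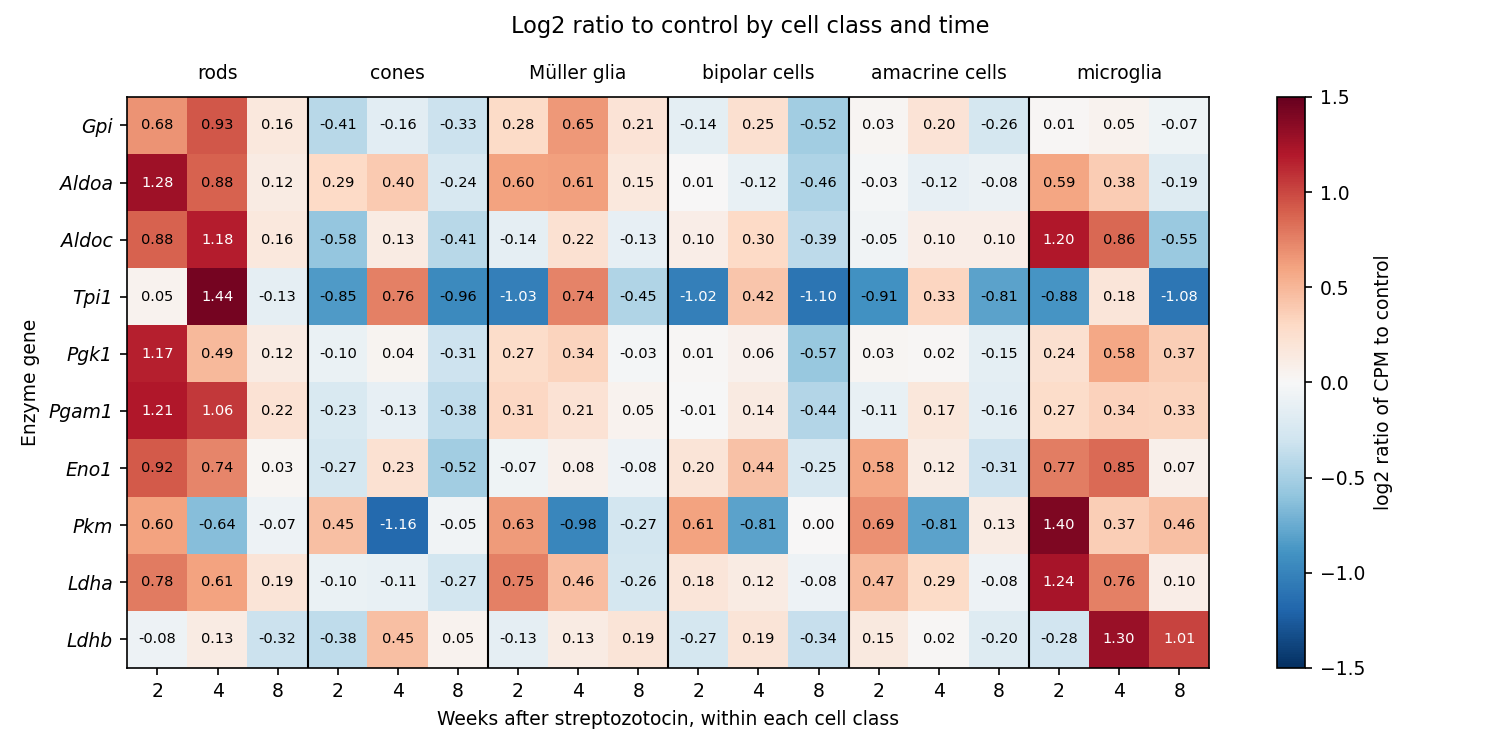
Log2 ratio to control of each enzyme (rows) by class and week after STZ (columns), red for higher and blue for lower, with the value in each cell. Rods at 2 and 4 weeks have 9 of 10 positive values each and microglia at 4 weeks 10 of 10, and Tpi1 is positive in all 6 classes at 4 weeks while Pkm is negative there in all but microglia.

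The order of the classes was mostly the same in the 4 libraries. In every library amacrine cells had more Gpi, Aldoa, Tpi1, Pgk1 and Ldhb than bipolar cells, the next class by mean, and in 3 of 4 libraries more Pgam1. Microglia had the lowest level of each of the 10 except Ldhb, by mean over libraries, and Tpi1 was higher in microglia than in rods in 1 library. Ldha was highest in cones, above rods in 4 of 4 libraries. Eno1 was about as high in Müller glia as in cones, and their ranges of 3841 to 4288 and 3158 to 5292 CPM overlap. Pkm was highest in cones and then in rods, and cones were above rods in 3 of 4 libraries. Aldoc was highest in Müller glia (1749 to 2241 CPM), above amacrine cells (1477 to 1643 CPM) in 4 of 4. Classes were formed by clustering the same cells, so these orders are descriptions. Bipolar levels rest on the cells under the 20% mitochondrial limit. Clusters were named by marker genes that do not include these enzymes.

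Over the 4 libraries Gpi ranged from 925 to 1270 CPM in amacrine cells, 570 to 972 in bipolar cells, 374 to 497 in cones, 224 to 427 in rods, 182 to 287 in Müller glia and 133 to 144 in microglia. Neighbouring ranges overlap between amacrine and bipolar cells, between cones and rods and between rods and Müller glia. Aldoa ranged from 3702 to 4030 CPM in amacrine cells, 2444 to 3382 in bipolar cells, 1561 to 2426 in cones and 1188 to 2879 in rods, and the cone range lies inside that of rods. Pgk1 was at 1467 to 1655 CPM in amacrine cells, 1053 to 1627 in bipolar cells and 1180 to 1509 in cones, 3 ranges that overlap, and at 541 to 699 in Müller glia and 297 to 666 in rods. Pgam1 followed a similar order, from 1147 to 1443 CPM in amacrine cells to 695 to 903 in cones, 281 to 647 in rods and 259 to 322 in Müller glia. By mean over libraries these 4 enzymes thus placed inner retinal neurons first, cones next and the rods and glia below them. Tpi1 ranged from 296 to 696 CPM in amacrine cells and 26.5 to 79.0 in rods, which do not overlap. Ldha gave the other order, with 4767 to 5751 CPM in cones, 2392 to 4114 in rods, 2116 to 2535 in bipolar cells, 1649 to 2421 in amacrine cells, 512 to 1037 in Müller glia and 260 to 617 in microglia. Photoreceptors thus came first for Ldha, while rods came last for Ldhb at 52.5 to 71.6 CPM.

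The paired isozymes marked Müller glia off from rods in each library. Aldoc made up 66.2% of the Aldoa and Aldoc UMIs in control Müller glia (interval 64.7 to 67.7%), and 54.0, 59.9 and 61.7% at 2, 4 and 8 weeks. In rods the share was 21.6, 17.4, 25.3 and 22.1%, in microglia 5.32 to 10.1%, and in the other 3 classes 23.3 to 35.7%. Müller glia thus had the highest share in every library. Ldhb made up 2.67, 1.49, 1.93 and 1.89% of the Ldha and Ldhb UMIs in rods and 2.78 to 4.89% in cones. In Müller glia the share was 20.5, 12.3, 17.0 and 26.1%, in bipolar cells 11.5 to 15.6% and in amacrine cells 30.6 to 35.5%. Photoreceptors were therefore low and the other classes high. Müller glia were above rods in 4 of 4 libraries for both shares, also after subtraction of free RNA and with cells of up to 40% mitochondrial UMIs kept. Within Müller glia both shares were lowest at 2 weeks. With free RNA subtracted the Ldhb share was still lowest there (10.8%, against 22.1% in control and 19.1% at 4 weeks), while the Aldoc share was 68.8, 64.6, 62.0 and 63.8% in control, 2, 4 and 8 weeks and lowest at 4 weeks. Before subtraction the microglial Ldhb share was 15.5% at 2 weeks against 34.7, 43.6 and 50.1% in control, 4 and 8 weeks. After it only 13 UMIs of the pair were left in microglia at 2 weeks, all of them Ldhb. The subtracted microglial share was 48.1, 54.3 and 74.8% in control, 4 and 8 weeks. With no Ldha counts left at 2 weeks, the subtracted share there is no measure and cannot show whether the low share was kept.

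**Figure D5:**
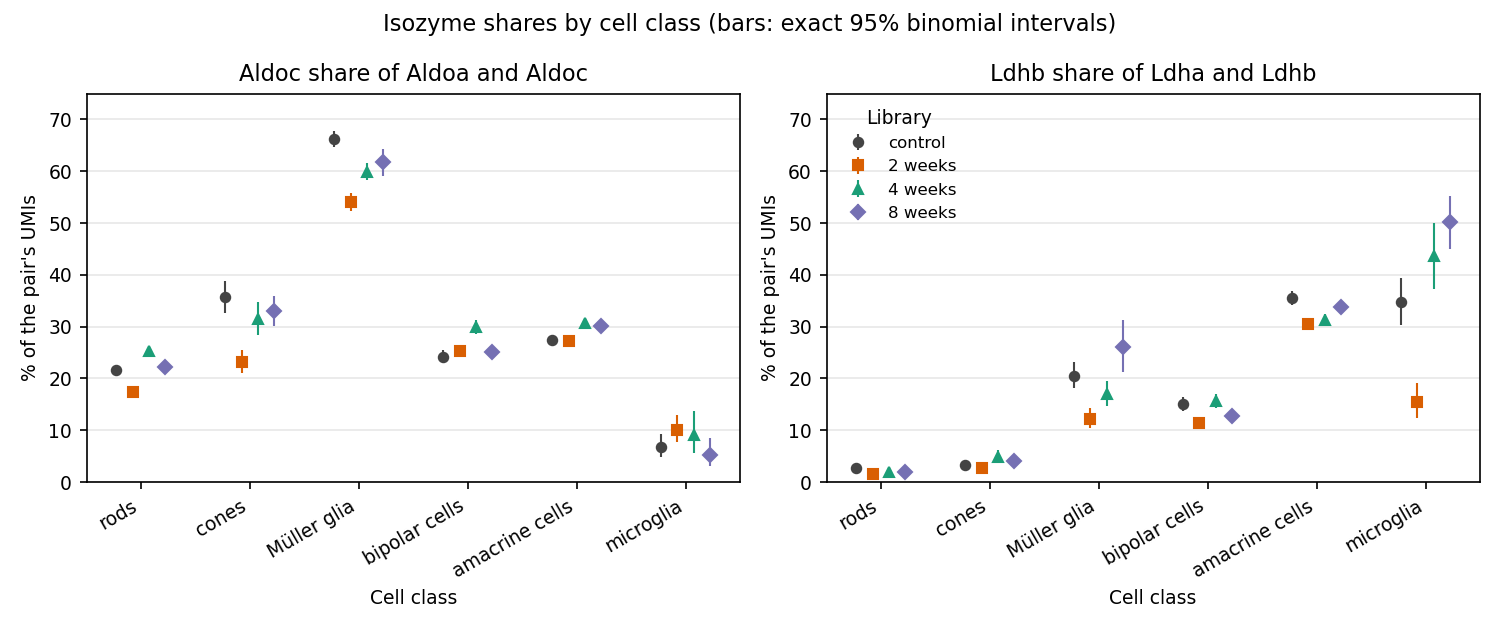
Aldoc as % of Aldoa and Aldoc UMIs (left) and Ldhb as % of Ldha and Ldhb UMIs (right) by class; each marker is 1 library and bars are exact 95% binomial intervals. Müller glia lie at 54.0 to 66.2% for Aldoc, above all other classes, and rods at 1.49 to 2.67% for Ldhb.

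Of the lists of other pathway genes, 5 glycolytic enzymes, 4 regulators, 7 pyruvate genes and 3 genes of glycogen and side branches were used in rods. Over all of these, 3 were at least 1.5-fold higher and 2 lower at 2 weeks, where 7.53 and 28.3% of all genes were. At 4 weeks the counts were again 3 and 2, against 8.37 and 12.3%. These counts depend on the scaling, since TMM factors gave 6 higher and 0 lower at 2 weeks and 5 and 1 at 4 weeks. Of 15 further glycolytic enzymes, 5 were measured well enough in rods (mean of at least 20 CPM), and 1 was 1.5-fold higher at 2 weeks, 1 higher and 1 lower at 4 weeks and none at 8 weeks. Hk2, the hexokinase that starts the pathway in photoreceptors, was at 4339, 3009, 4407 and 4813 CPM in control, 2, 4 and 8 week rods, ratios of -0.53 (-0.55 to -0.50), 0.02 and 0.15. It was lowest in the library where Aldoa was highest. The 2 week ratio of Hk2 also depends on the scaling. The median over all rod genes there was -0.27, and TMM factors moved every rod ratio at 2 weeks up by 0.39. Hk1 was at 24.1, 36.3, 34.5 and 27.8 CPM and passed the fold at 2 weeks (0.59). Pfkl, a phosphofructokinase, was at 98.0, 120, 165 and 92.1 CPM and passed it at 4 weeks (0.76), while Pfkp was at 28.0, 19.9, 17.2 and 36.8 CPM and was lower at 4 weeks (-0.71). Eno2, the neuronal enolase, had 7 to 15 UMIs a library in rods and 0 or 1 in Müller glia. Gapdh, Pfkfb4 and Pgd matched no symbol and were not analysed here.

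Of the 7 genes of pyruvate import and the pyruvate dehydrogenase complex, all were used in rods. At 2 weeks 1 was higher (Mpc2, a subunit of the mitochondrial pyruvate carrier, 0.67) and 2 lower (Dld and Pdhx, -0.69 and -0.75). At 4 weeks 2 were higher (Dlat and Pdha1, 0.89 and 0.63) and Mpc2 was lower (-0.63), the same alternation as for Pkm. None passed at 8 weeks. None of the 4 regulators used passed at any time, among them Hif1a and Epas1, which encode hypoxia-inducible factor subunits. Hif1a stood at 303, 334, 259 and 393 CPM in rods, and Epas1 at 159, 171, 179 and 153 CPM. Of 3 genes of glycogen and side branches used, Taldo1, the transaldolase of the pentose phosphate pathway, passed at 2 weeks (0.60) and none did at 4 or 8 weeks.

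In Müller glia Hk2 was at 68.8, 268, 150 and 50.8 CPM, ratios of 1.96 (1.62 to 2.32), 1.12 (0.73 to 1.52) and -0.41, the largest of the pathway there. Rods hold far more Hk2 than Müller glia, and free RNA was highest in the same 2 week library. The part of free RNA in its ratio was not tested. Pfkm, the muscle phosphofructokinase, was at 65.0, 94.0, 103 and 97.2 CPM, with ratios of 0.53, 0.67 and 0.59. Pygm, the muscle form of glycogen phosphorylase, was at 19.4, 21.0, 41.1 and 44.2 CPM, with ratios of 0.12, 1.07 and 1.19, from 20 to 39 UMIs a library. Of the genes of the other classes, Epas1 had 1 UMI in control cones and 20, 6 and 19 UMIs at 2, 4 and 8 weeks, and it stood at 9.15, 20.0, 11.1 and 59.4 CPM in bipolar cells. Rods hold 153 to 179 CPM of it, and rod genes stood at 836, 3123, 1348 and 1078 CPM in cones and at 1821, 4047, 2463 and 7323 CPM in bipolar cells, the same order of libraries as Epas1 in bipolar cells. The part of rod RNA in these values was not tested. Hif1a in microglia was at 70.6, 94.1, 37.5 and 43.8 CPM, lower at 4 and 8 weeks.

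Across the 24 sums of 6 classes in 4 libraries, the enzymes themselves divided. The standardised mean of the 10 followed Pgk1 (Pearson r = 0.98), Pgam1 (0.97), Aldoa (0.96) and Gpi (0.93) closely, and Pkm (0.64) and Ldhb (0.55) least. Of 3198 other genes compared, those most like that mean included RGD1562987 (r = 0.977), Asna1 (0.975), Bex2 (0.973), Psip1 (0.968), Swi5 (0.968) and Atp5mc3 (0.967). Atp5mc3 encodes a subunit of ATP synthase. The 24 points share 4 libraries and 6 classes, and most of their spread is between classes, with microglia low and amacrine cells high.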

How the data were processed

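Single-cell libraries of rat retina were analysed from the deposited matrices of raw UMI counts per gene and barcode, which the authors made with Cell Ranger 3.0.1, per the submitters' processing notes, on build Rnor_6.0. Gene identities are those of the files, and the annotation release is not given in the sources used here. The libraries held 20151789 to 34177860 counts in 7649 to 16128 barcodes of at least 500 UMIs. Barcodes were kept from 200 genes upward and up to a mitochondrial share of 20%. The top 0.8% of Scrublet scores per 1000 barcodes were removed as doublets (279 to 1627 per library). Clustering used scanpy 1.11.5 (2000 variable genes, 30 components, 15 neighbours, Leiden resolution 1.0, leidenalg 0.10.2) and gave 25 clusters, named by marker lists. Classes needed 50 cells in every library. Counts were summed per class, and genes at a mean of at least 20 CPM were used. Counts were compared without a test, since each group had 1 library. Free RNA was the rod-gene share of a class over that of all kept cells. The ratio code was tested on simulated counts. TMM factors came from edgeR 4.0.16 in R 4.3.3. Every member was named. Other pathway genes were named where they passed 1.5-fold in 1 direction at 2 or more times with an interval excluding 0 (at most 6 a class), plus Hk1, Hk2, Pfkp and Eno2, and the genes most alike were the 8 highest correlations among genes at a mean of at least 50 CPM. Some of these, and some marker genes, are not reported here. Dlat, Dld, Pdhx, Pdha1, Mpc2, Taldo1, Pfkl, and Hif1a and Epas1 in rods were named after their values were seen. The members and lists were chosen with earlier results of these data known. Protein identities between isozymes were not computed.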

Additional observations from a re-analysis of the deposited data

Results flagged for a closer look

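Ldha stood above control in rods and below control in cones at all 3 times, with every interval excluding 0. Its log2 ratios were 0.78, 0.61 and 0.19 in rods at 2, 4 and 8 weeks, and -0.10, -0.11 and -0.27 in cones. Across the alternatives the cone ratio ran from -0.12 to 0.05 at 2 weeks, so its sign was not kept in each of them. It ran from -0.15 to -0.01 at 4 weeks and from -0.29 to -0.23 at 8 weeks. The difference between the classes was not tested, since each group had 1 library and the 3 times share the control library. Cones numbered 57 to 171 a library. Gpi and Pgam1 had the same signs in both classes at all 3 times, but their cone intervals at 4 weeks include 0.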

How the results depend on the processing

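No paired analysis was possible because each group had 1 library with counts. Of 190 counts of genes or libraries recomputed under the alternatives, 168 lay within 1.5 times the reported one. With TMM scaling no member was lower in rods at 4 weeks and 1 was higher in Müller glia at 2 weeks. For other pathway genes in rods TMM gave 6 higher and 0 lower at 2 weeks (3 and 2 as reported) and 5 higher and 1 lower at 4 weeks (3 and 2), and in Müller glia 2 lower at 4 weeks (1) and 1 higher at 8 weeks (3). With free RNA subtracted, Müller glia at 2 weeks had 0 members higher and 3 lower, Pkm turned to -0.76 and Ldha to -0.10, and in microglia at 2 weeks Aldoa turned to -1.23 and Pkm to -0.50. Microglial Eno1 and Ldha had no counts left there, and their ratios of -7.0 and -7.13 are no measure. With doublets kept 1 member was higher in Müller glia at 8 weeks, and with every cell weighted equally 1 was higher there at 2 weeks. At a 2-fold threshold 3 members were higher in rods at 2 weeks and 3 at 4 weeks, with 0 lower at 4 weeks, and in Müller glia 0 were higher at 2 or 4 weeks and 0 lower at 4 weeks. At the lowest threshold tried, under 1.5-fold, 5 were higher in Müller glia at 4 weeks and 1 lower at 8 weeks. With rod clusters weighted equally (added after seeing the data) 5 members were higher in rods at 2 weeks and 0 lower at 4 weeks. With at most 10% mitochondrial UMIs Tpi1 in cones at 8 weeks turned to 0.53 and Aldoc in microglia at 4 weeks to -0.08. Of the 48 member ratios past 1.5-fold, out of 180, 41 to 48 stayed past it under each of the 12 alternatives applied to all classes, fewest with free RNA subtracted and with the 10% limit. Causes were not tested other than by each alternative's construction. Cones and microglia had the fewest cells, and their Pkm and Tpi1 ratios rest on 5 to 126 UMIs a library.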

Other observations

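Endothelial cells, which line the retinal vessels, were not compared because the 4 week library held 32 of them, but their enzyme levels can be given. Ldhb stood at 1176, 1167, 1372 and 1371 CPM in control, 2, 4 and 8 weeks (91, 417, 32 and 51 cells), above the 839 to 1065 CPM of amacrine cells, the highest of the compared classes. Ldha in the same cells was at 353, 525, 398 and 313 CPM. Ldhb thus had more UMIs than Ldha in each of the 4 libraries. These counts are not scaled to gene length and do not rank the amounts of the 2 transcripts. Pkm had 1 to 4 endothelial UMIs in 3 libraries and 62 at 2 weeks. Tpi1 in endothelial cells was at 64.5, 25.5, 91.7 and 46.1 CPM, low at 2 and 8 weeks and high at 4 weeks.

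A cluster led by Tagln and Mgp, genes of contractile vessel cells, kept no class name. It held 40 and 316 cells in control and at 2 weeks, with Aldoa at 1203 and 1169 CPM and Tpi1 at 99.5 and 36.3 CPM.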
